A study of Mus musculus with 4 samples.

Results

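The genes described here encode Fc receptors and Fc receptor-like proteins of mouse follicular B cells. They are the 8 genes Fcrl1, Fcrl5, Fcrla, Fcrlb, Fcer2a, Faim3, Fcgrt and Fcer1g, chosen by name from the 23305 genes with a single entry in each expression table. RNA was sequenced from splenic follicular B cells of female mice, sorted in a resting state, with 2 libraries of WT cells on the C57BL/6 background and 2 libraries of Ets1-/- cells on a mixed C57BL/6 x 129Sv background. The number of animals behind each library and their ages are not given in the sources used here. Strain and genotype cannot be told apart in these 4 libraries. Cells were sorted as B220+, CD23-high, CD21-low and negative for CD80 and for IgA, IgE and the IgG isotypes, so the protein product of Fcer2a, which is CD23, was itself used to choose the cells. The comparison asks which of these transcripts differ between WT cells and cells mutant for the transcription factor Ets1. By the markers of the sort, the cells compared were neither activated nor class-switched.

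Fc receptors bind the constant region of antibodies and let cells respond to antibody that has met its antigen. On B cells they tune signaling through the antigen receptor, for which some carry an ITAM, a tyrosine motif that recruits activating kinases, and others an ITIM, which recruits inhibitory phosphatases. Fc receptor-like genes are their relatives by sequence, and several of them are known mainly from B lymphocytes.

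Across the whole series between 10466 and 10713 genes reached 1 FPKM (sequenced fragments scaled to transcript length and library size) in each library, and the depth relative to WT replicate 1 was about 1.74 in the other WT library and 1.65 and 0.86 in Ets1-/- replicates 1 and 2. Ets1 itself was at 231 and 275 FPKM in WT and at 229 and 229.8 FPKM in Ets1-/- cells, and since the mutation removes only part of the exons this value does not check the labels. All 12 B cell and follicular B cell markers, Fcer2a among them, were tested and 0 passed the thresholds for a call (a log2 ratio of 1 or more in size and an adjusted p of at most 0.05 in limma). Called markers of other cells were Ngp, Camp and Ltf of 12 neutrophil markers, Emr1, and Thy1 of 8 T cell markers. The summed level of the 12 neutrophil markers was 119.6 and 98.6 FPKM in WT and 2579 and 708 FPKM in Ets1-/- cells. Emr1 was higher in Ets1-/- cells. Thy1 was lower, at 17.4 and 16.2 FPKM in WT and 3.38 and 3.39 FPKM in Ets1-/- cells. The median log2 ratio of the 8 T cell markers was 0.0155. None of the 7 mast cell and basophil markers reached 1 FPKM in any library. At an unadjusted p under 0.05, 9 of 12 tested neutrophil markers and 2 of 9 tested monocyte and macrophage markers were higher and 0 lower. Over all tested genes 6.39% were higher and 6.95% lower by this measure, which also stands beside the counts that follow. Apart from the neutrophil, macrophage and T cell lists, 0 markers passed the thresholds. At an unadjusted p under 0.05, 5 of 8 NK cell markers were lower and 0 higher, and 3 of 3 tested erythroid and platelet markers were higher. By the same measure 4 of 7 markers of B1 and CD11b+ or CD11c+ B cells were higher and 1 lower. Of 5 tested plasma cell markers 2, Prdm1 and Sdc1, were higher and 0 lower. The others, Xbp1, Irf4 and Igj, had log2 ratios of -0.36, -0.85 and -0.17. Of 3 tested dendritic cell markers 1 was higher, Itgax, which is also among the 4 higher markers of B1 and CD11b+ or CD11c+ B cells. Some of the markers counted here reached the minimum mean of 1 FPKM for testing only in the genotype where they were higher. These were Ncr1, Klrb1c, Prf1 and Klrk1 in WT cells, and Elane, Mpo, Mmp8, Alas2 and Prdm1 in Ets1-/- cells. The marginal zone B cell markers are given beside Fcrl5.

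No difference between the genotypes passed the test for any of the 8 genes. A gene was called changed in limma when its log2 ratio of Ets1-/- over WT was 1 or more in size and its adjusted p was at most 0.05, which held for 0 of 8 members and for 1.70% of the 10949 genes tested (0.877% higher and 0.822% lower). An unadjusted p under 0.05 was found for 2 members, Fcrla and Fcrlb, which were higher in Ets1-/- B cells, beside 13.3% of all tested genes (6.39% higher and 6.95% lower). Fcrlb was tested only because its Ets1-/- mean passed the minimum of 1 FPKM. The 2 Ets1-/- libraries lay above the 2 WT libraries for Fcrl1, Fcrla and Fcrlb, which is 3 of 8, and below them for Fcgrt, which is 1 of 8. Over all tested genes the shares without such an overlap were 19.4% above and 22.2% below. The 95% interval of the change lay within 2-fold in either direction for 5 members, namely Fcrl1, Fcrla, Fcer2a, Faim3 and Fcgrt, as it did for 83.5% of all tested genes. It reached beyond 2-fold for Fcrl5, Fcrlb and Fcer1g, for which a change of that size remains possible. These ratios are on the scale of log2(FPKM + 1), which understates the change of low genes such as Fcrlb.

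The levels of the 8 genes spanned 3 groups. Since FPKM is a value per length, levels can be set side by side between genes. Faim3 was the most abundant in every library, followed by Fcer2a, Fcrla and Fcrl1, and these 4 genes held between 97.3% and 98.3% of the summed FPKM of the members. Their ranks among all 23305 genes lay between 130 and 436. Fcgrt, Fcrl5 and Fcer1g formed the middle group, with values from 4.84 to 25.2 FPKM and with an order that changed between libraries. Fcrlb came last in all 4 libraries, at a rank of 9748 or lower. In WT cells the values of Fcrl5 and Fcer1g overlapped, and in Ets1-/- cells those of Fcgrt overlapped with those of Fcrl5, and those of Fcrl5 with those of Fcer1g, so these neighbours in the order did not differ beyond their spread. The plot of levels by library shows these steps.

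**Figure D1:**
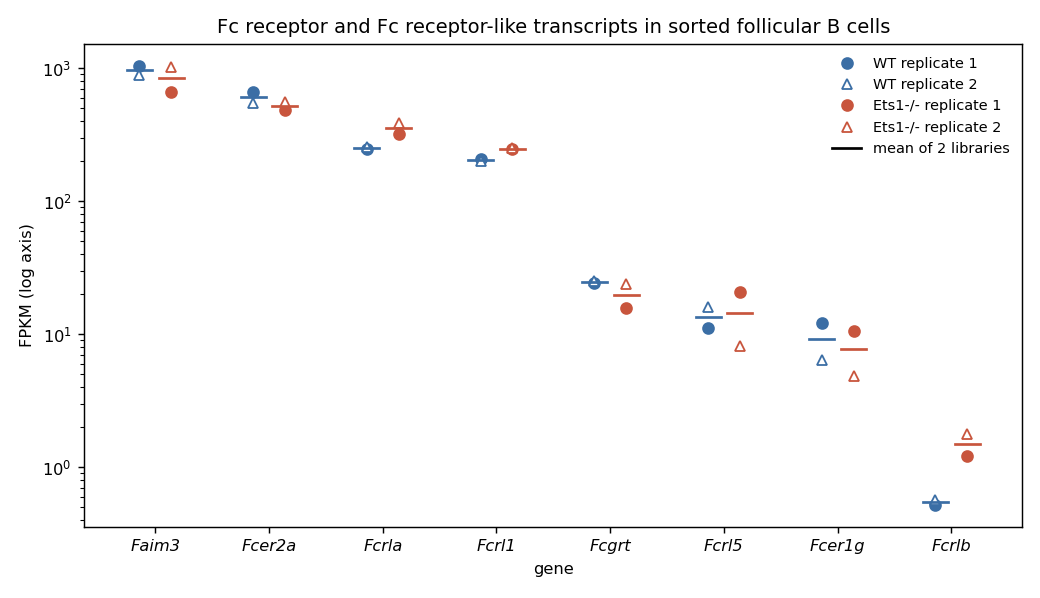
FPKM on a log axis of the 8 Fc receptor and Fc receptor-like genes, ordered by their WT mean; each point is 1 library and each bar the mean of 2 libraries of a genotype. Faim3, Fcer2a, Fcrla and Fcrl1 sit at 202 FPKM or more in every library, and Fcrlb between 0.522 and 1.79 FPKM.

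Ets1 recognises DNA through a GGAA core. In the promoter windows of RefSeq, which match all 8 genes (Faim3 under its current symbol Fcmr), the 250 bases before the start of transcription held GGAA on either strand in each of the 8 genes, as did 93.4% of the 32851 promoter windows. The longer form CCGGAA, searched on both strands and containing the core, was found for 1 gene, Fcer1g, and in 12.0% of all windows. Fcrla held a single core. These matches are shown because they are the sparsest and the longest match among the members, written 5′ to 3′ on the coding strand of each gene with the match in capitals, so that TTCC and TTCCGG are the reverse complements of the searched letters. They lie 37 and 71 bases before the start of transcription, at chr1:170927604-170927633 and chr1:171234403-171234432 of GRCm38.p6, both on the minus strand. A match in letters describes the sequence and does not show binding.
Fcrla: cagttaggtttatTTCCtcttttctaattt
Fcer1g: ccaaaatggcccTTCCGGgagctgcctggt

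Among the receptors that bind antibody at the cell surface, Faim3 encodes the Fc receptor for IgM. It lies at chr1:132762246-132777367 of mm9 (plus strand). Its FPKM was 1040.2 and 883 in the WT replicates and 665 and 1016 in the Ets1-/- replicates. Ets1-/- replicate 1 was the lowest library, and Ets1-/- replicate 2 lay between the WT values, so the genotypes overlapped. The log2 ratio was -0.22 (standard error 0.28), with a 95% interval from -0.93 to 0.49 and an adjusted p of 0.862. Without Ets1-/- replicate 1 the log2 ratio was 0.08, so its direction rested on that library.

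Fcer2a encodes CD23, the low-affinity receptor for IgE, which unlike the other members belongs to the C-type lectins. The gene is at chr8:3681737-3694174 of mm9 (minus strand). Its FPKM was 664 and 544 in WT and 488 and 559.6 in Ets1-/- cells. The higher Ets1-/- value was above the lower WT value, and the log2 ratio of -0.20 (standard error 0.20, 95% interval from -0.72 to 0.32) had an adjusted p of 0.812. Since cells with high CD23 were selected in both genotypes, this value describes the sorted cells and not the mice. After quantile normalization the log2 ratio was -0.39, with an adjusted p of 0.643. The ratio of Fcer2a to Faim3 within a library was 0.638 and 0.616 in WT and 0.734 and 0.551 in Ets1-/- cells, so the Ets1-/- libraries lay on either side of the WT libraries.

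Fcgrt encodes the heavy chain of the neonatal Fc receptor, an MHC class I-like protein that binds IgG inside endosomes and spares it from degradation. It is at chr7:52348363-52359192 of mm9 (minus strand). The WT replicates were close, at 24.2 and 25.2 FPKM, and the Ets1-/- replicates were at 15.9 and 23.9 FPKM. Both Ets1-/- values were below both WT values, though the higher of them was near the WT range. The means were 24.7 ± 0.717 and 19.9 ± 5.65 for WT and Ets1-/- cells (FPKM ± SD, n = 2 each), and the former was 1.25 times the latter. The log2 ratio of -0.33 (standard error 0.22, 95% interval from -0.89 to 0.23) had an adjusted p of 0.654, and without Ets1-/- replicate 1 it was -0.05. B2m, the light chain that pairs with it, had an FPKM of 2144 and 2889 in WT and 3013 and 2433 in Ets1-/- cells, and its value was between 88.5 and 189.9 times that of Fcgrt in each library.

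Of the Fc receptor-like genes, Fcrl1 encodes a surface protein of B cells with ITAM-like sequences in its tail. It lies at chr3:87180309-87196055 of mm9 (plus strand), 43.8 kb from Fcrl5. Fcrl1 was the most even of the 8 genes. Its FPKM was 208 and 202 in WT and 246 and 252 in Ets1-/- cells, with means of 205 ± 4.28 against 249 ± 3.79 (FPKM ± SD, n = 2 each), so that the ratio of means was 1.21 and the genotypes did not overlap. The difference was several times the spread of the replicates, but the shared variance estimate of the fit gave a standard error of 0.15 for the log2 ratio of 0.28, with a 95% interval from -0.11 to 0.66 and an adjusted p of 0.569. Of all tested genes, 6.6% had a smaller difference between the Ets1-/- replicates than Fcrl1. With each library left out in turn its log2 ratio stayed between 0.26 and 0.30.

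Fcrl5, whose protein is known from marginal zone and B1 B cells and carries an ITIM as well as an ITAM-like sequence, is at chr3:87239807-87261758 of mm9. Its FPKM was 11.1 and 16.0 in WT and 20.6 and 8.16 in Ets1-/- cells. The Ets1-/- replicates held the highest and the lowest value of the 4 libraries, and their ratio was 2.53. Its means of 13.5 ± 3.49 in WT and 14.4 ± 8.83 in Ets1-/- cells (FPKM ± SD, n = 2 each) differed by less than the spread of the replicates. The log2 ratio, opposite in sign to the difference of the means, was -0.03 (standard error 0.44, 95% interval from -1.14 to 1.09, adjusted p = 0.995). It ranged from -0.65 without Ets1-/- replicate 1 to 0.59 without Ets1-/- replicate 2. The difference between its Ets1-/- replicates was larger than that of 98.2% of the tested genes.

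Fcrla and Fcrlb are intracellular relatives of the Fc receptors, of which the Fcrla protein is known to bind immunoglobulins within B cells. The 2 genes are neighbours on the minus strand of chromosome 1, from 172847707 to 172857714 and from 172837404 to 172843072 of mm9, with 4.6 kb between them. The FPKM of Fcrla was 245 and 257 in WT and 319.6 and 390.5 in Ets1-/- cells. All Ets1-/- values were above the WT values, and the means were 251 ± 8.54 and 355 ± 50.1 (FPKM ± SD, n = 2 each), with a ratio of 1.41. The log2 ratio of 0.49 (standard error 0.18, 95% interval from 0.03 to 0.95) had an unadjusted p of 0.0412 in limma, and 0.337 after adjustment. It stayed between 0.35 and 0.64 with each library left out in turn, and was 0.34 after quantile normalization.

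Fcrlb was near the limit of the test. Its FPKM was 0.522 and 0.570 in WT and 1.22 and 1.79 in Ets1-/- cells. It was tested only because its Ets1-/- mean of 1.51 ± 0.397 passed the minimum of 1, while its WT mean was 0.546 ± 0.0343 (FPKM ± SD, n = 2 each). The ratio of means was 2.76, the highest of the 8 genes, but on the log2(FPKM + 1) scale the ratio was 0.69 (standard error 0.19, 95% interval from 0.21 to 1.16), with an unadjusted p of 0.0135 and an adjusted p of 0.189. With 0.1 in place of 1 added to each FPKM the log2 ratio was 1.29 and the adjusted p 0.211. The ratio of Fcrla to Fcrl1, the pair of abundant Fc receptor-like genes on different chromosomes, was 1.18 and 1.27 in WT and 1.298 and 1.55 in Ets1-/- cells, with a gap between the genotypes smaller than the differences within them.

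**Figure D2:**
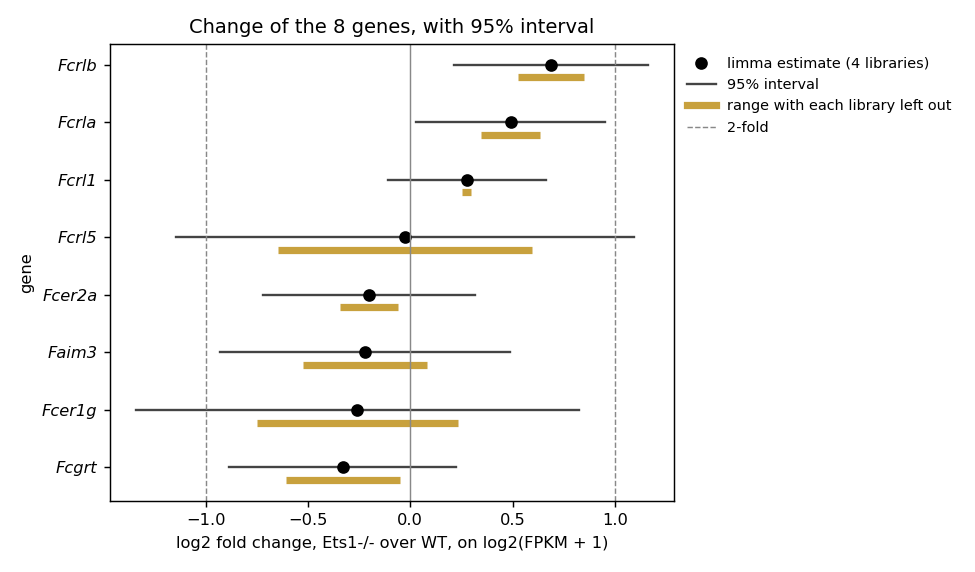
Log2 ratio of Ets1-/- over WT on the log2(FPKM + 1) scale for the 8 genes, with the limma 95% interval (thin line) and the range of the estimate when each library is left out in turn (thick line); dashed lines mark 2-fold. Fcrla and Fcrlb have intervals above 0, and the estimates of Fcrl5, Faim3 and Fcer1g change sign when a library is left out. Fcrlb was tested only through its Ets1-/- mean.

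Fcer1g encodes the common gamma chain, the ITAM-bearing subunit through which activating Fc receptors of myeloid, mast and NK cells signal. It is at chr1:173159703-173164496 of mm9 (minus strand), 302 kb from Fcrla. Its FPKM was 12.1 and 6.37 in WT and 10.5 and 4.84 in Ets1-/- cells. Replicate 1 was the higher library in each genotype, by 1.90 times in WT and 2.18 times in Ets1-/- cells, and the genotypes overlapped. The log2 ratio of -0.26 (standard error 0.42, 95% interval from -1.34 to 0.82) had an adjusted p of 0.902, and it was 0.16 without WT replicate 1 and 0.23 without Ets1-/- replicate 2. In bulk samples fewer cells of a type and less RNA per cell cannot be told apart.

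The 3 tested genes most like Fcer1g across the 4 libraries were Fcna, Mir142 and Csf1r, with a root mean square difference of their centred log2(FPKM + 1) values of 0.08, 0.09 and 0.14. Fcna encodes a ficolin of macrophages, and Csf1r the receptor of their growth factor. Fcna was at 2.36 and 1.13 FPKM in WT and at 2.23 and 0.722 FPKM in Ets1-/- cells. Csf1r was at 2.35 and 0.999 FPKM in WT and at 1.86 and 0.876 FPKM in Ets1-/- cells. Mir142 is a gene of 64 bases, for which an FPKM is poorly defined. Of 12 monocyte and macrophage markers, which include Fcgr1, 11 were higher in replicate 1 than in replicate 2 of both genotypes, as was Fcer1g. Of the 9 that were tested this held for 8, beside 14.8% of all tested genes. The summed level of the 12 was 70.1 and 34.2 FPKM in WT and 163 and 101 FPKM in Ets1-/- cells, and 0 of them were at 0 in all libraries. Lyz2 was the highest of the list, and the other 11, Emr1 among them, summed to 27.9 and 16.2 FPKM in WT and to 60.3 and 54.9 FPKM in Ets1-/- cells. The 1 marker without the order of Fcer1g was Emr1, a surface receptor that marks macrophages. It was at 2.35 and 2.63 FPKM in WT and 23.5 and 37.2 FPKM in Ets1-/- cells, and rose with a log2 ratio of 3.13 and an adjusted p of 0.00969. Neutrophil markers were higher in both replicates 1 for 10 of 12 and NK markers for 1 of 8. The same order held for 3 of 3 tested erythroid and platelet markers, 4 of 5 tested other Fc receptor genes described below and 1 of 8 T cell markers. The sort for B220+ CD23-high cells is one that leaves out most myeloid and NK cells, and their part in the level of Fcer1g was not tested.

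Tyrobp, the adaptor most like Fcer1g in function, was more even, at 55.3 and 44.9 FPKM in WT and 56.8 and 48.1 FPKM in Ets1-/- cells. The ratio of Fcer1g to Tyrobp was 0.219 and 0.142 in WT and 0.186 and 0.101 in Ets1-/- cells. For Fcrl5 the list set beside it was that of 10 marginal zone B cell markers, which also holds Cr2. Of these, 8 were higher in WT replicate 2 than in WT replicate 1 and in Ets1-/- replicate 1 than in Ets1-/- replicate 2, which is the order of Fcrl5, beside 30.3% of all tested genes. The summed level of the 10 markers was 413 and 495 FPKM in WT and 457 and 413 FPKM in Ets1-/- cells, with 0 of them at 0 in all libraries. Mzb1, singled out after its values were seen as the highest of the list, was higher in Ets1-/- cells, and the other 9 markers summed to 239 and 279.9 FPKM in WT and to 186 and 123 FPKM in Ets1-/- cells. Of the 10 markers, 5 were lower and 1 higher at an unadjusted p under 0.05, beside 6.95% and 6.39% of all tested genes. Of these markers 0 passed the thresholds in limma, and the median log2 ratio was -0.29. Asb2, among the lower ones, was tested only because its WT mean passed the minimum of 1. The genes most like Fcrl5 were Olfr613, Prpf39 and Naip6, with differences of 0.03, 0.03 and 0.04, and none of them is on the marker list. The sort for CD23-high CD21-low cells leaves out marginal zone B cells, which are CD21-high and CD23-low, and Ets1-/- mice are known to lack them. The part of marginal zone B cells in the level of Fcrl5 was not tested.

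**Figure D3:**
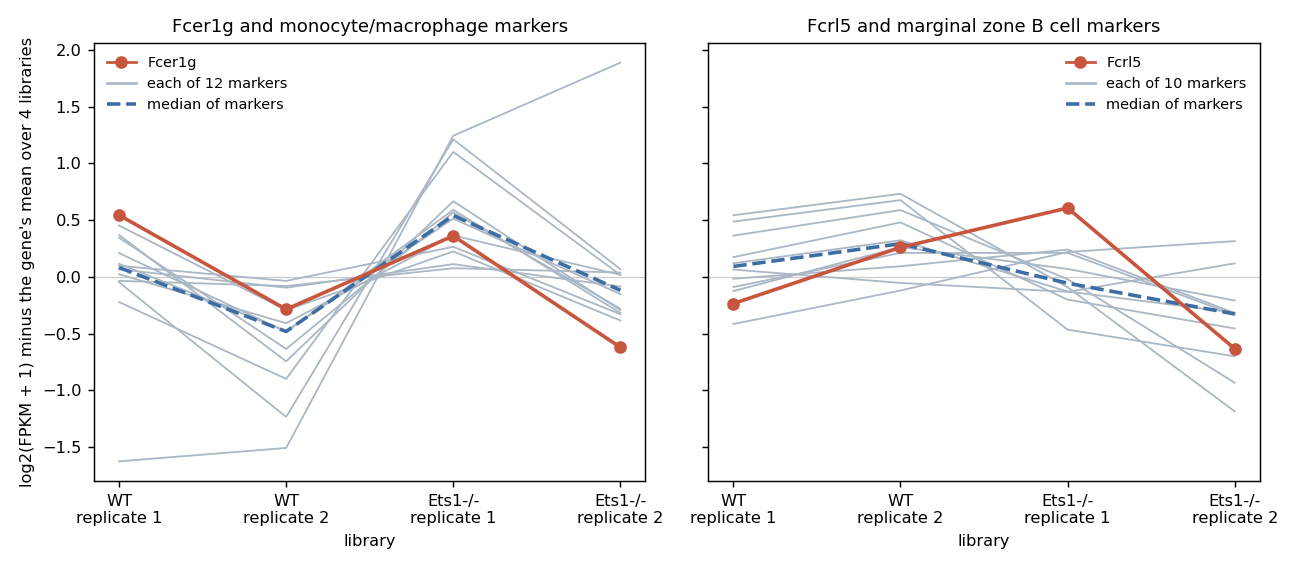
Log2(FPKM + 1) minus the mean of each gene over the 4 libraries, for Fcer1g with 12 monocyte and macrophage markers (left) and for Fcrl5 with 10 marginal zone B cell markers (right); grey lines are single markers, the dashed line their median, and lines join libraries only to make a gene visible. Fcer1g and 11 of the 12 markers are higher in replicate 1 of each genotype, and 8 of the 10 markers share the order of Fcrl5 within each genotype.

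The nearest genes of the other members were of mixed kinds. Ell3, Zfp1 and Mcts2 were nearest to Fcrl1 (each at 0.01), Gm13375, Ticam2 and Smad1 to Fcrla (0.01 to 0.02), and Trim46, Apof and Spns2 to Fcrlb (0.02 to 0.03). Aacs, Casp2 and Atpaf1 were nearest to Fcer2a (0.01 to 0.02), Lmf2, Dhps and Amdhd2 to Faim3 (0.02 to 0.03), and Abhd8, Dand5 and Galnt10 to Fcgrt (0.02 to 0.03). Over 4 libraries such likeness is a description and says nothing of shared control, and no member was among the 3 nearest genes of another.

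A list of 10 other Fc receptor and subunit genes, which does not cover the whole family, was looked at beside the members. Of these, 5 stayed under 1 FPKM in every library and were not tested, namely Fcgr1, Fcer1a, Ms4a2, Fcrl6 and Fcrls. Fcer1a, the IgE-binding chain of mast cells and basophils, was listed at 0 in all 4 libraries. Of the 5 tested genes 0 passed the thresholds in limma, and 1, Pigr, had an unadjusted p under 0.05, beside 13.3% of all tested genes. Pigr, which carries polymeric IgA and IgM across epithelia and lies 13.4 kb from Faim3, was at 2.59 and 2.41 FPKM in WT and 1.40 and 1.28 FPKM in Ets1-/- cells, a log2 ratio of -0.58 (standard error 0.15, adjusted p = 0.174). Fcamr, a receptor for IgA and IgM, was at 10.3 and 8.28 FPKM in WT and 9.33 and 8.46 FPKM in Ets1-/- cells. Trim21, a cytosolic receptor for antibody on incoming pathogens, lay between 16.7 and 19.6 FPKM. Fcgr3 and Fcgr4, the activating IgG receptors of myeloid cells that need Fcer1g, had means of 0.933 and 0.676 FPKM in WT and 1.69 and 1.72 FPKM in Ets1-/- cells. They were tested only because their Ets1-/- means passed the minimum of 1, and their adjusted p-values from limma were 0.427 and 0.420.

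Ligands, partner chains and proteases of Fc receptors gave 7 tested genes, of which 0 passed the thresholds in limma. Of the 7, 2 had an unadjusted p under 0.05, Cr2 and Cd247, beside 13.3% of all tested genes. Cr2 encodes CD21, a binding partner of CD23 that was also used in the sort, and its FPKM was 102 and 116 in WT and 65.1 and 29.95 in Ets1-/- cells. Its log2 ratio was -1.28 (standard error 0.37, 95% interval from -2.23 to -0.32), with an adjusted p of 0.216 in limma. The paper, which used Cuffdiff, lists Cr2 as downregulated 2.3-fold in Ets1-/- B cells. Here the WT mean was 2.29 times the Ets1-/- mean, so the size was alike and the test differed. Cr2 passed when Ets1-/- replicate 1 was left out. Cd247, the zeta chain, an ITAM subunit of T and NK cells, was at 9.77 and 7.30 FPKM in WT and 15.3 and 23.7 FPKM in Ets1-/- cells, with a log2 ratio of 1.09 (standard error 0.26, adjusted p = 0.145). Adam10, the protease that sheds CD23, averaged 25.2 ± 0.131 in WT and 24.1 ± 6.56 in Ets1-/- cells (FPKM ± SD, n = 2 each).

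Of 14 kinases, adaptors and enzymes that act on ITAM or ITIM tyrosines, all were tested and 0 passed the thresholds in limma. Of the 14, 2 had an unadjusted p under 0.05, Fyn and Dok1, beside 13.3% of all tested genes. Fyn, a Src family kinase, was at 25.4 and 24.6 FPKM in WT and 11.7 and 14.7 FPKM in Ets1-/- cells, with a log2 ratio of -0.88 (standard error 0.16) and an adjusted p of 0.0796. Dok1, an adaptor of inhibitory signals, had a log2 ratio of -0.40 and an adjusted p of 0.371. Lyn, the Src family kinase that phosphorylates both motifs in B cells, lay between 113 and 123 FPKM, and Ptpn6, the phosphatase that binds ITIMs, between 490.2 and 614 FPKM. The median log2 ratio of the 14 genes was 0.06, beside -0.02 over all tested genes.

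**Figure D4:**
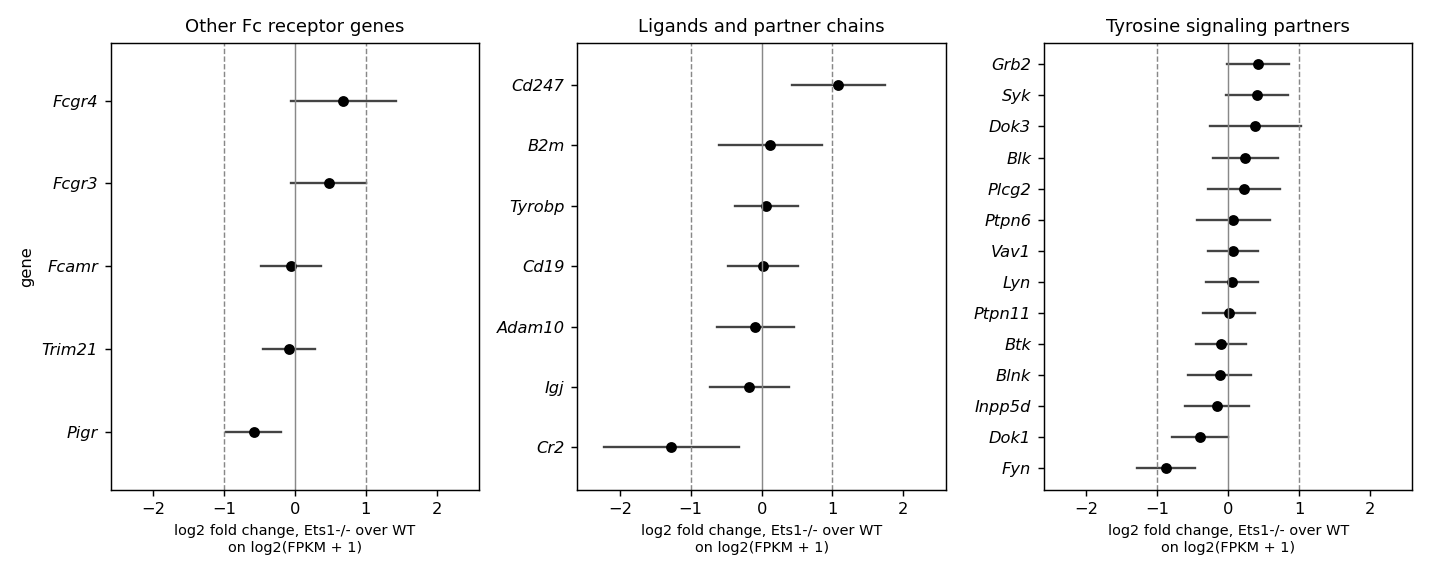
Log2 ratio of Ets1-/- over WT on the log2(FPKM + 1) scale with the limma 95% interval, for the tested genes among other Fc receptors (5), ligands and partner chains (7) and tyrosine signaling partners (14); dashed lines mark 2-fold. Fyn, Cr2 and Cd247 lie farthest from 0, and 0 of the 26 genes passed the thresholds.

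The members lie in 5 places of the genome. Fcrlb, Fcrla and Fcer1g share a stretch of chromosome 1, Faim3 is elsewhere on that chromosome, Fcrl1 and Fcrl5 share a stretch of chromosome 3, and no annotated gene that was measured overlapped any of the 8. Within 500 kb of a member 112 other genes were tested, of which 5 changed past the thresholds, or 4.46%, beside 1.70% of all tested genes. With any of the 4 libraries left out the number was 3. Pear1 and Sh2d2a, beyond Fcrl5 on chromosome 3, fell with log2 ratios of -2.38 and -2.55 (adjusted p = 0.00536 and 0.00381). Sh2d2a, an adaptor of T cells, was at 12.0 and 10.9 FPKM in WT and at 1.14 and 1.12 FPKM in Ets1-/- cells, while Fcrl5, 389 kb away, overlapped between the genotypes. Rcn3, which lies 0.8 kb from Fcgrt on the same strand and encodes a calcium-binding protein of the secretory pathway, rose from 5.56 and 5.49 FPKM to 16.7 and 15.3 FPKM (adjusted p = 0.0179), against the lower values of Fcgrt. Cd209a, a lectin gene 49.2 kb from Fcer2a, rose with a log2 ratio of 1.36 (adjusted p = 0.0355). Itln1, 284 kb from Fcer1g, was listed at 0 in the WT libraries and at 2.74 and 1.72 FPKM in the Ets1-/- libraries (adjusted p = 0.0370). Cd209a and Itln1 passed the filter on low values only through the Ets1-/- libraries, and with a mean FPKM of at least 1 asked of both genotypes 3 neighbours passed. Whether these neighbours differ by genotype or by strain cannot be told apart.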

How the data were processed

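RNA of sorted follicular B cells was sequenced in 2 WT and 2 Ets1-/- libraries made with the TruSeq RNA kit. The authors aligned reads to mm9 with TopHat2 2.0.13 (version per the submitters' processing notes) and deposited 1 FPKM value per gene symbol and library from Cuffdiff. The gene annotation and any scaling between libraries by Cuffdiff are not given in the sources used here. No read counts were used, so only the relative depth could be had, with WT replicate 1 set to 1, from the step size of FPKM values under 0.05.

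Each library has 23309 entries, and 4 whose symbol occurs more than once were dropped. The genotypes were compared by limma 3.58.1 (R 4.3.3) on log2(FPKM + 1) (eBayes with a trend, residual degrees of freedom 2, prior degrees of freedom 3.10) for the 10949 genes whose mean FPKM reached 1 in WT or in Ets1-/- cells, with Benjamini-Hochberg adjustment over all of them. The fit was tested on simulated data. P-values rest on the spread of 2 libraries per genotype, moderated by a variance estimate shared across genes. A permutation of 2 against 2 libraries cannot give a p under 0.333. Members and lists were chosen with earlier results of these data known. Genes named are the members, the genes of the fixed lists, the 3 tested genes nearest to each member and called genes within 500 kb. Positions are those of GENCODE M1 on mm9, which matched 90.8% of genes. Promoter sequences are from RefSeq on GRCm38.p6. Other values were computed with Python 3.11.15 and pandas 2.3.3. Alternatives covered the pseudocount, the filter, the scaling, the variance estimation, the replicate number as a block, each library left out and the threshold on the adjusted p.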

Additional observations from a re-analysis of the deposited data

How the results depend on the processing

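No member passed the thresholds under any of the 14 other fits or with an adjusted p of up to 0.1, and the lowest adjusted p of a member was 0.0728, for Fcrlb with a crossed block. Of 111 values of the members' log2 ratios under alternatives, 104 kept their direction and 7 turned it. Fcrl5 turned to 0.0288 with quantile normalization and 0.014 with upper-quartile scaling, and to 0.22 without WT replicate 2 and 0.59 without Ets1-/- replicate 2. Faim3 turned to 0.0842 without Ets1-/- replicate 1, and Fcer1g to 0.16 without WT replicate 1 and 0.23 without Ets1-/- replicate 2. With each library left out in turn the log2 ratio ranged from -0.65 to 0.59 for Fcrl5, from -0.53 to 0.0842 for Faim3 and from -0.75 to 0.23 for Fcer1g. Fcrlb was not tested where a mean FPKM of at least 1 was asked of both genotypes.

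Of all tested genes 186 passed, and 75 without a filter on low values, 305 with robust variance estimation, 312 at an adjusted p of up to 0.1 and 130 to 144 with each library left out, where a lone library is assumed to vary like the other genotype's pair. A replicate block gave 266 genes and 0 members. The labels do not say whether same-numbered libraries were handled together. Deviations of same-numbered libraries had a correlation of -0.21 over genes, which cannot settle this. With the crossed pairing as a block, chosen after seeing the data, 409 genes passed, 2 of them among the ligands and partner chains (Cd247 and Cr2) and 8 among the genes within 500 kb of a member. The ligands and partner chains otherwise gave 0 to 1 with each library left out, and the neighbours gave 2 without a filter, 3 with a minimum in both genotypes and 3 with each library left out. The cause of these shifts was not tested. Absolute depth is unknown, so counting error could not be given for any value.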
